A study of Homo sapiens with 12 samples.

Results

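The cytosolic ribosomal protein genes encode the proteins that, with the ribosomal RNAs, form the large and the small subunit of the ribosome that translates nuclear messages. They were taken by symbol as the protein-coding genes named RPL or RPS followed by digits (with at most 1 letter A, X, Y or L after them), RPLP0, RPLP1, RPLP2 and RPSA, under the names of GENCODE 29. The rule found 81 of the 59191 features listed, 49 of the large and 32 of the small subunit, and used no measured value. All 81 passed the filter on low values (at least 1 TPM in at least 3 libraries), which 15352 features passed. TPM is the share of a transcript among all transcripts of a library, scaled by transcript length, with the same total in every library.

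The labels give Huh7, an established cell line from a human hepatocellular carcinoma, as the source of all 12 libraries, which form 4 groups of 3: control cells given the solvent DMSO, cells given disulfiram, cells given thalidomide, and cells given both drugs, called the combination here. Disulfiram inhibits aldehyde dehydrogenases, and its copper-bound metabolite is known to act on the p97 segregase pathway. Thalidomide acts through cereblon, which selects proteins for a ubiquitin ligase. The labels conflict on the assay: their extraction text describes dissociated tumour tissue and a droplet kit for single cells, and the library source is entered as single cell. The table holds 1 column of TPM per library and no cells, so its values are read here as bulk RNA of Huh7, which the labels leave uncertain. The sources used here do not give the unit of the doses, how long cells were treated or how deeply libraries were sequenced. No label says whether the 3 libraries of a group came from separate cultures, so a p-value measures the spread between libraries, which may be technical. All 11 hepatocyte and hepatoma markers examined had a mean of at least 1 TPM in some group. Their summed level was 5178 to 7914 TPM in control, 4717 to 4758 in disulfiram, 6328 to 8694 in thalidomide and 4314 to 5415 in the combination. Of 6 endothelial markers 1 reached 1 TPM and TEK was at 0 in all libraries, and their sum was 0.880 to 1.64 TPM in control, 3.52 to 7.52 in disulfiram, 1.78 to 2.62 in thalidomide and 3.91 to 5.54 in the combination. Of 10 immune markers 4 reached 1 TPM (MS4A1 was at 0) with sums from 129 to 215 TPM. The highest group mean of a single immune marker was 142 TPM, a large part of such a sum. Of 8 fibroblast and stellate markers 5 reached 1 TPM, with sums from 57.2 to 93.5 TPM. The part of these levels in the results was not tested.

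Most proteins of the ribosome are present once in each particle, and cells make them in a coordinated way. Most of their mRNAs start with a cytosine and an unbroken run of pyrimidines, the 5′ terminal oligopyrimidine (TOP) tract, through which mTOR and the RNA-binding protein LARP1 control their translation. Hepatocytes export large amounts of protein and depend on many ribosomes. Free RPL5 and RPL11 can bind and inhibit MDM2 when ribosome assembly fails, which stabilises p53.

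The starts of 11 members are shown because they are among the members with the largest changes described below, the first 8 higher and the last 3 lower in treated cells. Each line gives 15 bases before and 15 bases from the start site annotated by RefSeq (GRCh38.p14), on the gene's own strand, 5′ to 3′, with the pyrimidine run from the start site in capitals.
RPS27 (chr1:153990747-153990776, plus strand): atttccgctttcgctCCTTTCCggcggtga
RPL26 (chr17:8383179-8383208, minus strand): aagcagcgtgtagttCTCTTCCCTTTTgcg
RPL22 (chr1:6199581-6199610, minus strand): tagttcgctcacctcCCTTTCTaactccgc
RPL31 (chr2:101002274-101002303, plus strand): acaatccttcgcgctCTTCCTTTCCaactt
RPS24 (chr10:78033848-78033877, plus strand): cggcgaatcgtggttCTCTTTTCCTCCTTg
RPL39 (chrX:119791616-119791645, minus strand): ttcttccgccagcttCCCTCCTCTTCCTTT
RPL17 (chr18:49492451-49492480, minus strand): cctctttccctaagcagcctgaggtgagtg
RPS27A (chr2:55231888-55231917, plus strand): taaggagtgacacacaagacccagactctt
RPL7A (chr9:133348203-133348232, plus strand): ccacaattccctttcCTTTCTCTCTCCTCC
RPSA (chr3:39406705-39406734, plus strand): tttcctgccgcctgtCTTTTCCgtgctacc
RPL10 (chrX:154398050-154398079, plus strand): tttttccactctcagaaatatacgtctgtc
Runs of pyrimidines that open with a cytosine stand at the annotated start of 6 of the 8 genes that rose and of RPL7A and RPSA, which fell. RPL17, RPS27A and RPL10 have none there, nor does RPL10L, a low-level member that fell in disulfiram. This says only that no such run opens at the annotated start base. Pyrimidine runs elsewhere in a window, such as the one before the start of RPL17, were not counted. Of the 64 members found in the RefSeq table, 42 (65.6%) start with a cytosine followed by at least 4 further C or T bases on the sense strand, against 4.60% of the 15842 protein-coding genes in the table. Genes of the mitochondrial ribosome, a separate machine, showed it in 5 of 69 (7.25%).

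Ribosomal protein mRNAs were among the most abundant in these cells. Of the 100 features with the highest mean TPM, 54 were members. RPL3L, RPL10L, RPL39L and RPS27L are paralogs of other members, and the remaining 77 had control means from 269 TPM (RPL9) to 10066 TPM (RPL41), a 37.4-fold range, with a median of 2428 TPM and 66 at 1000 TPM or more. RPL41, which encodes a peptide of 25 residues, led the large subunit with 9905, 10158 and 10134 TPM in the control libraries. RPL35 (6254 ± 409 TPM, mean ± SD, n = 3), RPL10 (6016 ± 127 TPM) and RPL13 (5604 ± 168 TPM) came next in that subunit. The control libraries of RPL35 overlapped those of both, while RPL10 lay above RPL13 in every one. RPS2, a protein at the mRNA entry of the small subunit, led there with 7753 ± 323 TPM, ahead of RPS27 (6263 ± 584 TPM) and RPS15 (5928 ± 320 TPM). The control libraries of RPS2 lay above those of RPS27 and RPS15, which overlapped each other. RPS6, the substrate of the S6 kinases, was the lowest of the small subunit apart from the paralog RPS27L, with 829, 728 and 689 TPM in control. Control libraries varied less in these genes than in most: the median coefficient of variation was 4.31% over the 77 and 11.8% over all features tested. It was 5.59% in disulfiram, 5.27% in thalidomide and 7.12% in the combination. Many members have processed pseudogenes or near-identical copies, so levels of single members are uncertain to the extent that the authors' counting divided reads among copies.

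Summed over the 81 genes, ribosomal protein mRNA took a larger share of all TPM in cells given disulfiram, alone or with thalidomide. The share in libraries 1, 2 and 3 was 20.5%, 21.2% and 21.0% in control, 23.1%, 22.5% and 22.1% in disulfiram, 21.8%, 21.1% and 21.1% in thalidomide, and 23.4%, 22.5% and 23.3% in the combination. All 6 libraries with disulfiram lay above all 6 without it, while thalidomide overlapped control. The mean was 20.9% ± 0.343 (SD, n = 3) in control, and it was 1.64 percentage points higher in disulfiram, 0.454 higher in thalidomide and 2.13 higher in the combination. The thalidomide value was 0.223 without the first thalidomide library and 0.267 without the first control library. A summed share over chosen genes is given as a description without a test. In bulk RNA a larger share cannot be told apart from fewer cells or less RNA of other kinds. Mitochondrially encoded mRNAs, a large part of all TPM, took 10.7% in control and 9.03% in the combination (8.24%, 10.3% and 8.56% by library). With only nuclear protein-coding genes in the denominator, the ribosomal protein share was 24.6% in control, 26.5% in disulfiram, 25.1% in thalidomide and 26.8% in the combination. A share depends on no scaling factor of the library. The share was not computed again after correction for the base composition of the libraries, which is described further down. The part of base composition in the share was not tested.

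**Figure D1:**
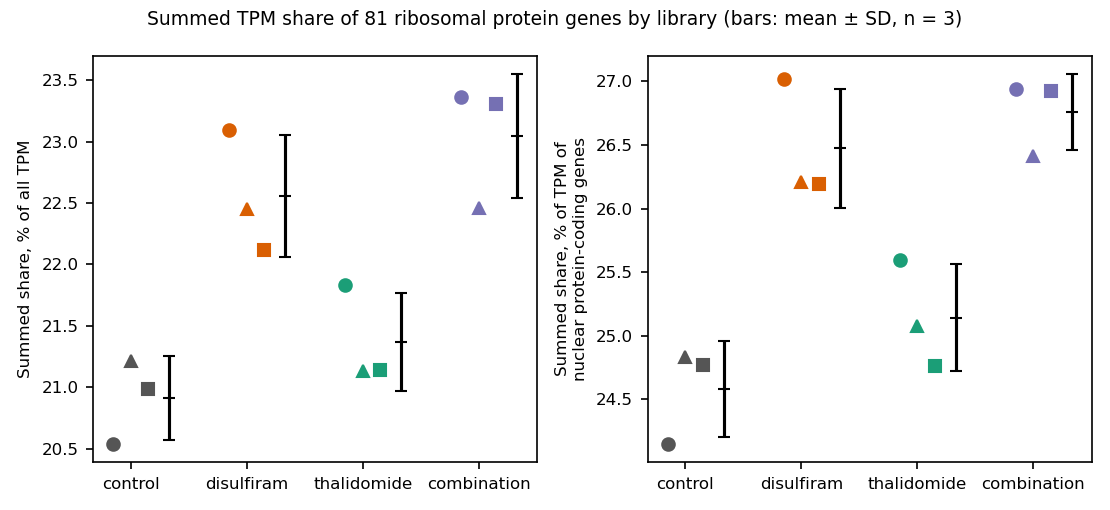
Summed share of the 81 ribosomal protein genes in each library, as a percentage of all TPM (left) and of the TPM of nuclear protein-coding genes (right), with the y axes not starting at 0. Circles, triangles and squares are replicates 1, 2 and 3, and bars are mean ± SD; the libraries with disulfiram, alone or in the combination, lie above those without it in both panels.

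Both subunits contributed. In disulfiram the share of the large subunit was 0.989 percentage points higher and that of the small subunit 0.650, and in the combination 1.33 and 0.795. The sum hides opposite movements: in the combination 62 genes with a higher share added 2.76 percentage points and 19 with a lower share took away 0.636. RPL26 and RPS27 had the highest gains there, with 0.213 and 0.199 percentage points, and RPS2 the largest loss, at -0.196. In disulfiram RPS27 alone gained 0.235 percentage points, and RPS2 lost the most, at -0.139.

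Disulfiram against control asks which genes respond to that drug alone. Of the 81 members 13 rose and 2 fell at an adjusted p below 0.05 (limma on log2(TPM + 1), Benjamini-Hochberg over all features tested), which is 16.0% higher against 8.73% of all features tested and 2.47% lower against 4.52%. The large subunit gave 10 of the rises and 1 fall, and the small subunit 3 rises and 1 fall. The median log2 fold change over the members was 0.13, beside 0.09 over all features tested. The disulfiram libraries lay wholly above control for 34 members (21.5% of all features) and wholly below for 6 (11.4%). RPS27, a zinc-finger protein of the small subunit, rose most, and RPL30, RPL39, RPL37, RPLP1 and RPL23 of the large subunit followed. RPS2 and RPL10L fell.

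RPS27 had 5589, 6572 and 6628 TPM in the control libraries and 8861, 8250 and 8738 TPM in disulfiram. The 2 groups did not overlap, and the log2 fold change was 0.46 ± 0.075 (SE; adjusted p = 0.00242). RPL30, a large subunit protein that also binds selenocysteine insertion elements, stood at 1913, 2144 and 2163 TPM in control and 2857, 2584 and 2675 TPM in disulfiram, again without overlap, a change of 0.38 ± 0.077 (SE; adjusted p = 0.00775). RPL39, which lines the tunnel through which the new peptide leaves, rose from 3000, 3502 and 3366 to 4848, 3828 and 4192 TPM, with 0.38 ± 0.099 (SE; adjusted p = 0.0265), and its first disulfiram library was well above the other two. RPLP1, an acidic protein of the stalk that recruits elongation factors, rose from 933, 973 and 959 to 1197, 1196 and 1114 TPM, with 0.29 ± 0.06 (SE; adjusted p = 0.00906). RPL37 and RPL23, structural proteins of the large subunit, changed by 0.34 (adjusted p = 0.0124) and 0.29 (adjusted p = 0.0476).

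RPS2 went the other way. It had 7383, 7985 and 7889 TPM in control and 6204, 6736 and 6148 TPM in disulfiram, no overlap, and a log2 fold change of -0.29 ± 0.07 (SE; adjusted p = 0.0199). RPL10L, an intronless copy of RPL10 known from testis, was near the floor of the table, at 2.86, 2.78 and 2.89 TPM in control and 1.41, 1.63 and 1.71 TPM in disulfiram, with -0.57 ± 0.15 (SE; adjusted p = 0.0236). RPL10 itself did not pass the test (-0.19, adjusted p = 0.0593).

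How many members passed depended on the scaling and on single libraries. Scaling by the median of ratios, which sets the typical gene to no change and so takes away an upward shift, left 2 of the rises (RPS27 and RPL30) and both falls. Correcting each library for transcript GC content gave 7 rises and 6 falls, among them 5 of the 13 rises and both falls. Leaving out control library 1, 2 or 3 gave 3, 6 or 5 rises and 1, 0 or 0 falls. Leaving out disulfiram library 1, 2 or 3 gave 4, 12 or 6 rises and 0, 4 or 0 falls, and leaving out the third combination library gave 7 rises. Without the second disulfiram and combination libraries, which stand apart in base composition, there were 23 rises and 5 falls. RPL30, RPLP1 and RPS27 passed whichever library was left out, and neither fall did.

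Thalidomide against control asks the same of the second drug. None of the members changed past the threshold, nor did any of the features tested: 0% rose and 0% fell by limma, the only test tool used. At an unadjusted p below 0.05 there were 3 members, RPS28 and RPL38 among them, against 5.69% of all features. Fold changes of members ranged from -0.11 to 0.20 on the log2 scale with a median of 0.012, beside -0.032 over all features. Thalidomide libraries lay wholly above control for 8 members (3.91% of all features) and wholly below for 1 (6.32%). RPS28, a small subunit protein near the mRNA exit, had the smallest p, with 1326, 1166 and 1174 TPM in control and 1430, 1436 and 1344 TPM in thalidomide, 0.20 ± 0.067 (SE; adjusted p = 0.751). RPL38, a large subunit protein known from a mouse patterning mutant, came second with 0.19 ± 0.073 (SE; adjusted p = 0.803). The thalidomide and control libraries did not overlap for these 2 genes, but neither difference passed once all features were accounted for.

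The combination against control had more members past the threshold than disulfiram alone on the reported scale, but not after GC correction (7 rises and 5 falls, against 7 and 6 in disulfiram). Of the members 37 rose and 4 fell (limma, adjusted p below 0.05), 45.7% higher against 18.4% of all features tested and 4.94% lower against 6.7%. Their median log2 fold change, 0.21, was close to the 0.20 of all features tested, so the whole table was shifted upwards on this scale. Members also varied less between control libraries, with a median coefficient of variation of 4.31% without the paralogs against 11.8% over all features tested. The part of this lower variation in the counts past the threshold, here and in disulfiram, was not tested. The combination libraries lay wholly above control for 41 members (33.9% of all features) and wholly below for 7 (12.1%). Of the 37 rises 31 were among the 39 members with the lower coding GC content, described further down. The large subunit had 21 rises and 2 falls and the small subunit 16 and 2. RPL31, RPL26, RPL22, RPS24, RPL17 and RPS27A rose most, by 1.48- to 1.62-fold as ratios of mean TPM, and RPS2, RPL7A, RPSA and RPL10, all abundant, fell.

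**Figure D2:**
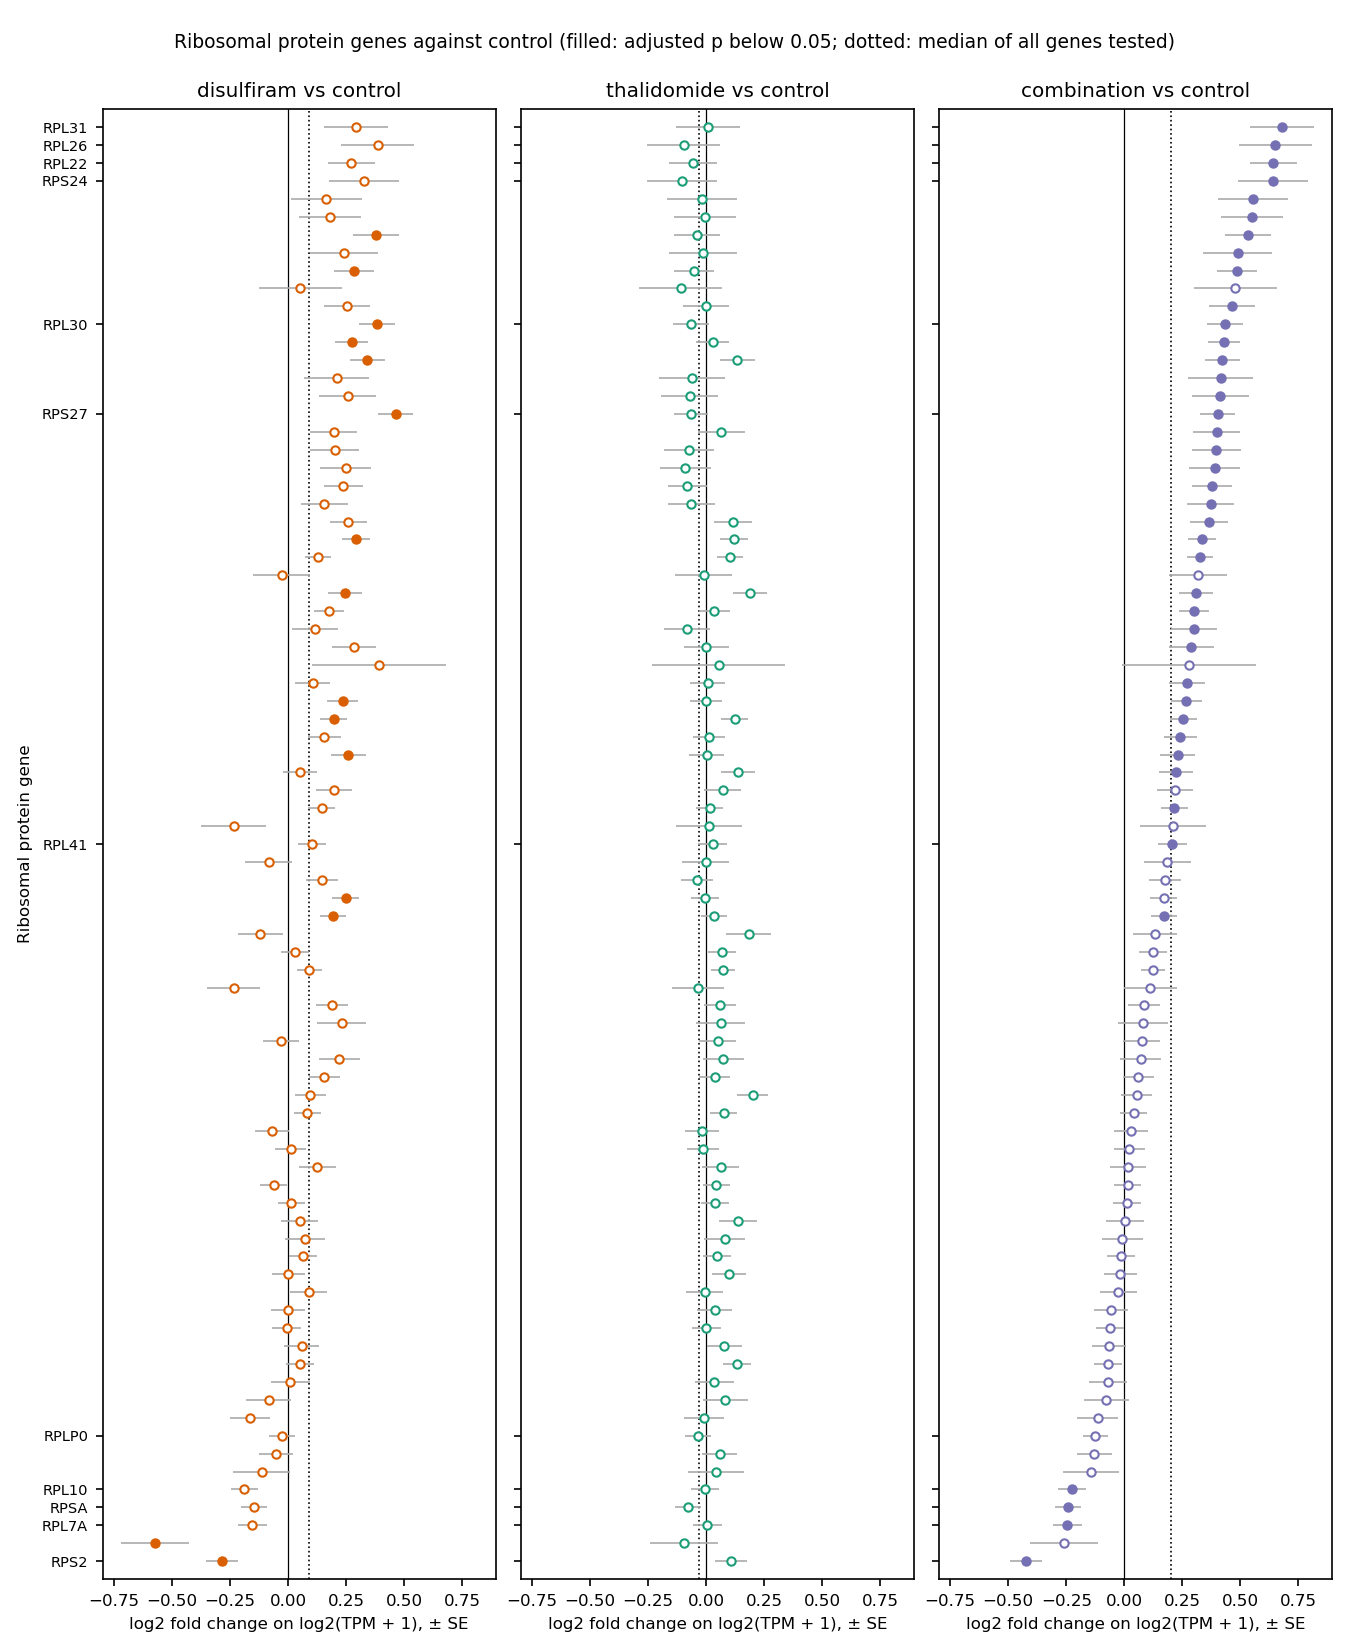
Log2 fold change of each of the 81 members against control in disulfiram, thalidomide and the combination, with its standard error, ordered by the value in the combination, with 12 of them named on the axis. Filled points passed an adjusted p of 0.05 (15 in disulfiram, 0 in thalidomide, 41 in the combination), and the dotted line is the median of all features tested, which lies at 0.20 in the combination.

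RPL31, near the exit of the peptide tunnel, had 1441, 1523 and 1535 TPM in control and 2757, 1982 and 2534 TPM in the combination, 0.68 ± 0.14 (SE; adjusted p = 0.00678). RPL26, a neighbour at the tunnel exit that also binds the p53 mRNA, had 3175, 4219 and 3662 TPM in control and 6635, 4613 and 6185 TPM in the combination, 0.65 ± 0.16 (SE; adjusted p = 0.0143). The groups did not overlap for either gene, and in both the second combination library was the lowest of the 3. RPL22, whose loss activates p53 in developing T cells, rose from 389, 416 and 394 to 662, 550 and 667 TPM, 0.64 ± 0.10 (SE; adjusted p = 0.00216). RPS24, needed for processing of the small subunit's RNA, rose from 1464, 1826 and 1661 to 2901, 2064 and 2804 TPM, 0.64 ± 0.15 (SE; adjusted p = 0.0128). These 4 also passed after median-of-ratios scaling and after GC correction. RPL17, another protein at the tunnel exit, changed by 0.55 ± 0.15 (SE; adjusted p = 0.0232). A readthrough gene that shares its exons, RPL17-C18orf32, had 51.2 to 123 TPM, against a mean of 1250 TPM for RPL17. RPS27A, made as a fusion with ubiquitin, changed by 0.55 ± 0.13 (SE; adjusted p = 0.0151).

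The other rises in the combination ranged from 0.17 (RPS19) to 0.53 (RPL39) on the log2 scale. RPL39 rose from 3000, 3502 and 3366 TPM in control to 5057, 4188 and 5043 TPM. RPL30 had 2936, 2550 and 2928 TPM and RPS27 8441, 8058 and 8246 TPM in the combination, close to their levels in disulfiram alone. RPL23, RPL37 and RPLP1, which also rose in disulfiram, changed by 0.49 ± 0.086 (SE; adjusted p = 0.0039), 0.42 ± 0.076 (SE; adjusted p = 0.00402) and 0.33 ± 0.06 (SE; adjusted p = 0.00412). RPS20 was among the tightest, with 1679, 1646 and 1660 TPM in control and 2112, 2023 and 2116 TPM in the combination, 0.33 ± 0.055 (SE; adjusted p = 0.00313). RPL41, the most abundant member, rose less, to 12186, 10743 and 11983 TPM, 0.21 ± 0.061 (SE; adjusted p = 0.0305). After median-of-ratios scaling RPL41 was at 0.0048 and RPS19 turned to -0.033, neither past the threshold.

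RPS2 had 5420, 6291 and 5661 TPM in the combination, below every control library, and fell by 0.42 on the log2 scale (adjusted p = 0.00274). RPSA, the small subunit protein also known as the laminin receptor, went from 3691, 3803 and 3827 to 3130, 3239 and 3188 TPM, -0.24 ± 0.056 (SE; adjusted p = 0.0112). RPL10, which joins the large subunit at the end of its assembly, went from 5966, 6161 and 5922 to 5130, 5140 and 5158 TPM, -0.23 ± 0.06 (SE; adjusted p = 0.0203). RPL7A, which contacts the large ribosomal RNA, went from 5298, 5041 and 4818 to 4115, 4465 and 4195 TPM, -0.25 ± 0.062 (SE; adjusted p = 0.0173). None of the 4 overlapped control, and all 4 also passed after median-of-ratios scaling and after GC correction.

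**Figure D3:**
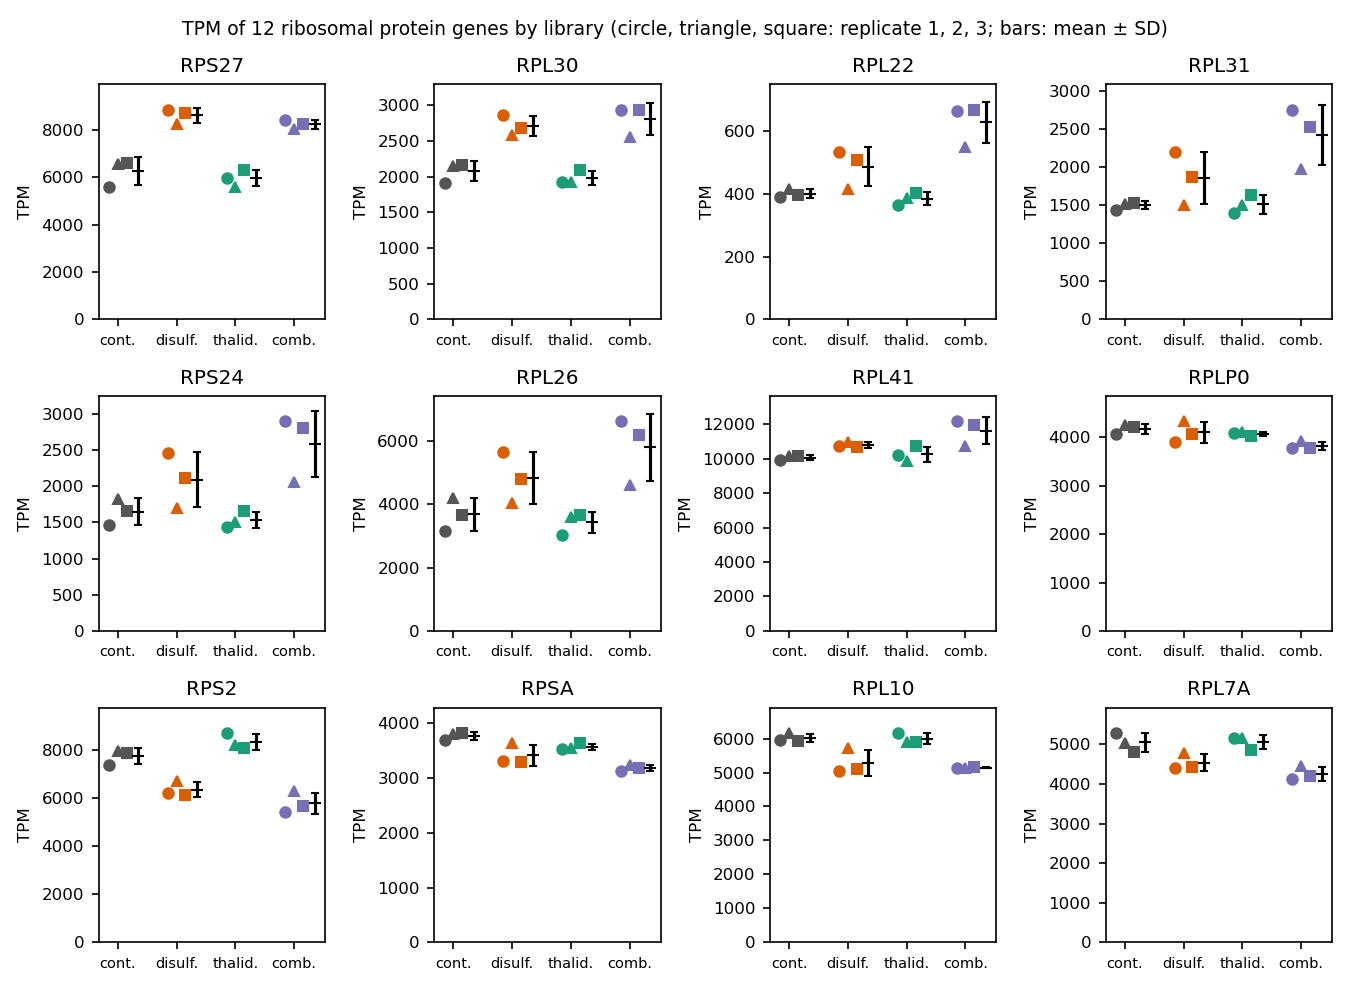
TPM of 12 members in each library, with y axes from 0; circles, triangles and squares are replicates 1, 2 and 3 and bars are mean ± SD. RPS27 and RPL30 are higher in disulfiram and in the combination, RPL22, RPL31, RPS24 and RPL26 have their highest mean in the combination, with its second library the lowest of the 3, RPLP0 stays between 3782 and 4335 TPM in all 12 libraries, and RPS2, RPSA, RPL10 and RPL7A have their lowest mean in the combination, with libraries that overlap those of disulfiram for RPS2, RPL10 and RPL7A.

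The count of rises rested on the scaling. Median-of-ratios scaling, which takes away the shift of 0.20, gave 7 rises and 8 falls, with a median over the members of 0.0048, and GC correction gave 7 rises and 5 falls. Leaving out the first or the third combination library gave 16 or 15 rises and 2 falls each, and leaving out the first control library gave 19 and 2. Without the second disulfiram and combination libraries there were 40 rises and 5 falls. When any 1 library was left out, 15 rises (among them RPL22, RPL23, RPL27, RPL30, RPL31, RPL35A, RPL37, RPL38, RPL39, RPLP1, RPS20, RPS25, RPS27 and RPS29) and 2 falls (RPS2 and RPSA) still passed. RPL22, RPL31, RPS2 and RPSA passed under all 22 alternative settings.

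**Figure D4:**
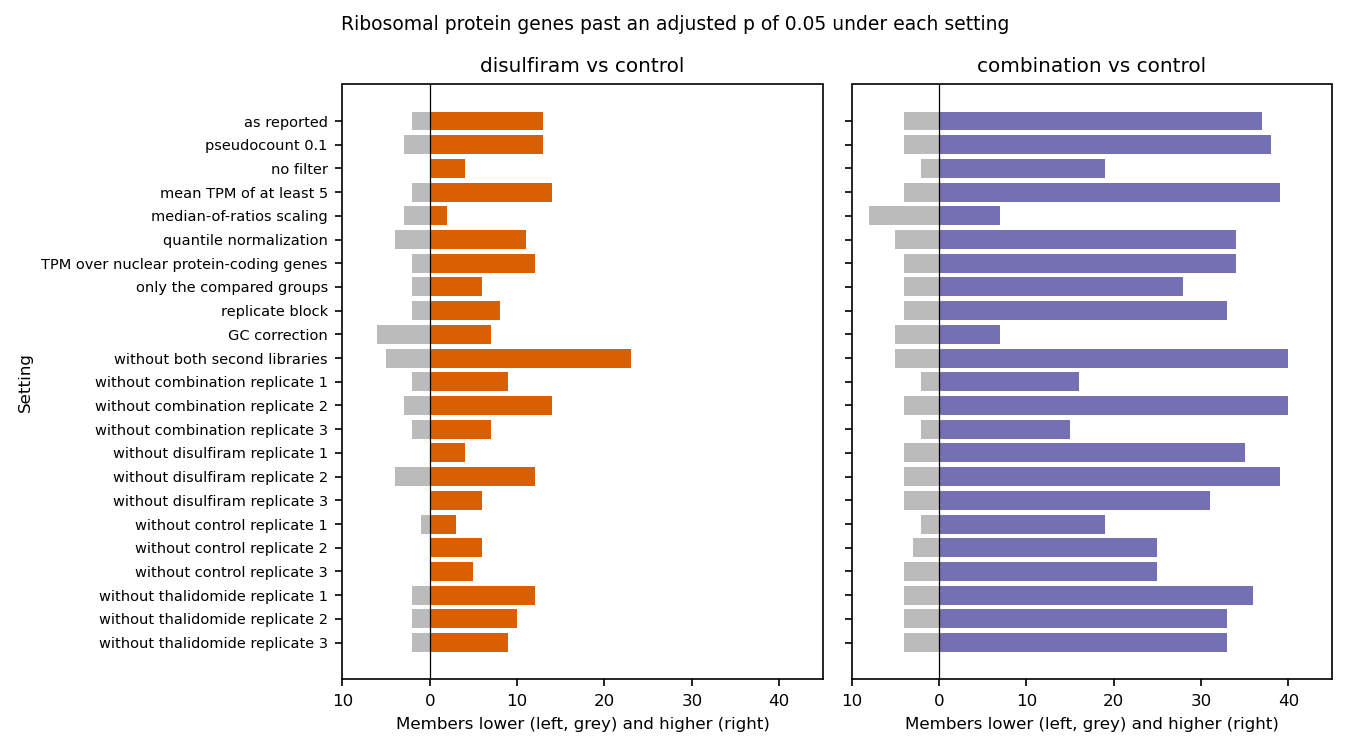
Number of members past an adjusted p of 0.05 in disulfiram and in the combination under each alternative setting, with genes higher to the right and genes lower to the left in grey. In the combination the 37 rises become 7 under median-of-ratios scaling and 7 under GC correction, and the 4 falls become 8 and 5.

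Within neighbourhoods of the ribosome some members passed and others did not. These sets were drawn up after the values were seen, so their counts are descriptions, to be read beside the 45.7% of all members and 18.4% of all features tested that rose in the combination, and the 4.94% and 6.7% that fell. Of 8 proteins around the tunnel exit 5 (62.5%) rose in the combination, with a median of 0.54 over the 8. RPL35 and RPL19, of the same region, and RPL23A did not pass. Coding GC content was 57.2%, 54.3% and 49.8% in these 3, and 47.5%, 45.1% and 46.0% in RPL31, RPL26 and RPL17. Of the 39 members with the lower coding GC content 31 rose, and neither set was compared with members of like GC content. Of the 3 stalk proteins RPLP1 rose (0.33, adjusted p = 0.00412), while RPLP0 (-0.12, adjusted p = 0.111) and RPLP2 (-0.057, adjusted p = 0.582) did not pass. In the 5S particle RPL11 rose with 0.30 ± 0.099 (SE; adjusted p = 0.0448), though its libraries overlapped control, and RPL5 had a similar value that did not pass (0.32, adjusted p = 0.0761). Among 12 members mutated in Diamond-Blackfan anaemia, an inherited failure of red cell formation, 8 (66.7%) rose and none fell. The part of GC content in the counts of these sets was not tested.

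None of the 4 paralogs passed in the combination. RPL3L, the muscle form of RPL3, stood at 1, 0.5 and 0.53 TPM in control and 1.18, 1.25 and 0.67 TPM in the combination (0.28, adjusted p = 0.48), and RPL3 itself at 2416 ± 141 and 2229 ± 98.5 TPM. RPL39L had 35.2 ± 0.617 TPM in control and 31.8 ± 1.66 TPM in the combination (-0.14, adjusted p = 0.383), beside a rise of 0.53 for RPL39. RPS27L, a p53 target, had 75.4 ± 11.1 TPM in control, 63.5 ± 4.38 in disulfiram and 86.9 ± 7.24 in the combination (0.21, adjusted p = 0.271), beside a rise of 0.40 for RPS27. Whether a paralog differed from its partner was not tested.

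Disulfiram alone and the combination share the control libraries, so their changes are set side by side only as values. RPS27 changed by 0.46 and 0.40, RPL30 by 0.38 and 0.43, RPL31 by 0.29 (adjusted p = 0.192) and 0.68, RPL26 by 0.39 (adjusted p = 0.13) and 0.65, and RPS2 by -0.29 and -0.42.

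The combination against disulfiram asks what thalidomide adds. No member passed: 0 rose against 0% of all features and 0 fell against 0.00651%, while 14 had an unadjusted p below 0.05 against 17.1% of all features. RPL22 (0.37 ± 0.10 SE, adjusted p = 0.256) and RPS20 (0.20 ± 0.055 SE, adjusted p = 0.256), a small subunit protein of the head, had the smallest p. Both had their libraries separated between the groups. Without the second combination library RPL6, a large subunit protein named here after its value was seen, passed as higher; with all libraries it had 0.35 ± 0.11 (SE; adjusted p = 0.26).

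The combination against thalidomide asks what disulfiram adds. Of the members 36 rose, against 25% of all features, and 5 fell, against 7.24%. RPL26 (0.75, adjusted p = 0.00646), RPS24 (0.74, adjusted p = 0.00534), RPL22 (0.70, adjusted p = 0.000999), RPL31, RPL7 and RPL17 rose most. RPS2 (-0.53 ± 0.07 SE, adjusted p = 0.000571), RPL7A, RPL10 and RPSA were among those that fell, with RPL10 at 6172, 5890 and 5905 TPM in thalidomide and 5130, 5140 and 5158 TPM in the combination (-0.22 ± 0.06 SE, adjusted p = 0.0189). Median-of-ratios scaling gave 7 rises and 19 falls here, and GC correction 7 and 9. Without the first, without the third combination library or without the first thalidomide library there were 16, 15 or 21 rises and 1, 1 or 2 falls.

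The interaction takes each drug's own log2 change from the change seen with both, and asks whether the drugs together differ from the sum of each. No member passed, nor any of all features (0% in each direction by limma), and 5 had an unadjusted p below 0.05 against 10.3% of all features. RPL22 (0.43 ± 0.14 SE, adjusted p = 0.466) was among those 5. The median standard error over the members was 0.109.

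Fold changes of the members went with the base composition of their coding sequences, a property the rule did not use: in the combination the genes that rose were mostly poor in G and C. Across the 77 genes without the paralogs, Spearman's rho between fold change and coding GC content was -0.43 in disulfiram, 0.53 in thalidomide and -0.78 in the combination. These are correlations across genes measured in the same libraries, given without a p because genes are not replicates. Over 12602 features with a coding sequence the values were -0.0037, 0.21 and -0.48. In the combination, the 39 members with a coding GC of 42.5% to 51.6% had 31 rises and no fall, and a median change of 0.39. The 38 members from 51.9% to 63.0% had 6 rises and 4 falls, and a median of 0.013. Other tested genes in the same 2 ranges had medians of 0.30 and 0.025, with 24.7% and 12.8% higher and 3.69% and 12.3% lower. Disulfiram alone had 9 rises and no fall in the lower range and 4 rises and 1 fall in the upper, with medians of 0.20 and 0.056. Other genes in these ranges had medians of 0.064 and 0.070 in disulfiram, with 5.96% and 12.3% higher and 4.35% and 7.34% lower. RPS2, with 61.8% GC, is among the most GC-rich members, and RPL26, RPL22 and RPS24 have 45.1%, 44.3% and 44.4%. In the combination, the 42 members with a TOP tract at the annotated start base had a median change of 0.21. The 22 with a start in the RefSeq table but no tract at that base had 0.15. Members missing from the RefSeq table are in neither set.

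**Figure D5:**
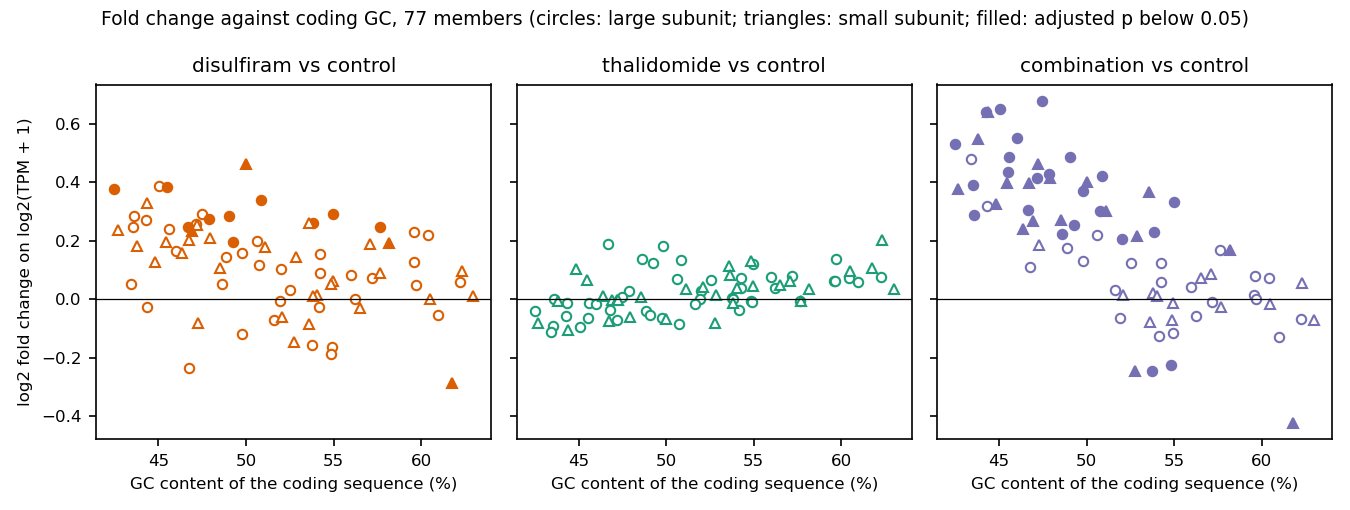
Log2 fold change against the GC content of the coding sequence (in percent) for 77 members, with circles for the large and triangles for the small subunit and filled points past an adjusted p of 0.05. Points fall from left to right in the combination (rho = -0.78), less so in disulfiram (rho = -0.43), and rise in thalidomide (rho = 0.53).

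Libraries also differed in base composition within a group. Across 15042 features, Spearman's rho between a library's deviation from its group mean and transcript GC was -0.598, 0.673 and -0.377 in combination libraries 1, 2 and 3, and -0.493, 0.61 and -0.308 in disulfiram. The second library of both groups stood apart from the other 2 in sign. Deviations from a group's own mean cancel out, so opposite signs within a group are built into this measure. The thalidomide libraries had 0.483, -0.0625 and -0.399, and control libraries lay between -0.177 and 0.125. The gap between the low-GC and the high-GC members, in medians of log2 differences from the control mean, was 0.54, 0.11 and 0.45 in the combination libraries, 0.29, -0.044 and 0.16 in disulfiram, and -0.20, -0.061 and 0.037 in thalidomide. All 3 combination libraries had the gap in the same direction, and the disulfiram libraries did not. After correction of each library for transcript GC, rho of the members with coding GC was -0.44 in disulfiram and -0.53 in the combination. With transcript GC itself, rho went from -0.405 to -0.411 in disulfiram and from -0.734 to -0.369 in the combination. Coding length moved with the changes as well, with rho of -0.53 in disulfiram and -0.40 in the combination. The part of base composition or length in the rises and falls was not tested.

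Other genes of the translation apparatus were taken as lists chosen with earlier results of these data known, and their counts depended on the scaling. For all features tested the shares were 8.73% higher and 4.52% lower in disulfiram, and 18.4% and 6.7% in the combination. Of 18 translation factors and other known TOP mRNAs none passed in disulfiram, and 2 rose in the combination: TPT1 (0.45 ± 0.096 SE, adjusted p = 0.00801), a calcium-binding TOP message, and HNRNPA1 (0.33, adjusted p = 0.028), an RNA-binding protein. EEF1A1, the most abundant elongation factor, had 6000 ± 323 TPM in control and 6795 ± 1492 TPM in the combination and did not pass. Of 7 ribosome components outside the naming rule only RPL26L1 rose in the combination (0.55 ± 0.16 SE, adjusted p = 0.0276), and RACK1 did not pass. Of 29 initiation factors 1 rose and 2 fell in disulfiram, EIF2B2 up and the helicase EIF4A1 (-0.37) and EIF3C down, and 4 rose and 2 fell in the combination. After median-of-ratios scaling the initiation factors had 0 rises and 3 falls in disulfiram and 0 and 6 in the combination, and after GC correction 0 and 5, and 0 and 4.

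Genes that build ribosomes or regulate TOP messages included rises and falls in the combination. Of 44 ribosome biogenesis genes 1 fell in disulfiram, NHP2 of the box H/ACA particles (-0.37), and 3 rose (NMD3, WDR43 and RRN3) and 4 fell in the combination. Their medians were -0.076 and -0.030, beside 0.09 and 0.20 for all features. Median-of-ratios scaling gave the biogenesis genes 0 rises and 4 falls in disulfiram and 1 and 9 in the combination, and GC correction 1 and 7, and 1 and 5. Of 15 regulators 2 fell in disulfiram, EIF4EBP1 and LARP1, and 5 rose and 4 fell in the combination, where median-of-ratios scaling gave 4 and 5 and GC correction 2 and 5. EIF4EBP1, the mTOR target that holds back cap-dependent translation, went from 204, 243 and 256 TPM in control to 116, 122 and 103 in disulfiram and 108, 131 and 113 in the combination, with -1.03 ± 0.10 (SE; adjusted p = 0.000149) and -0.99 ± 0.10 (SE; adjusted p = 0.000211). LARP1 changed by -0.24 ± 0.068 (SE; adjusted p = 0.0351) in disulfiram. Of 78 mitochondrial ribosomal protein genes 1 fell in disulfiram (MRPL24, -0.43), and 10 rose and 6 fell in the combination, with a median of 0.10. This balance turned over with the scaling: the combination had 2 rises and 16 falls after median-of-ratios scaling and 1 and 11 after GC correction, and disulfiram 0 and 2, and 1 and 10. Of 13 mitochondrially encoded mRNAs 4 fell in the combination, among them MT-ND3 (-0.58), MT-ATP8 and MT-CO3, and 7 fell under either of these scalings. No gene of any of these lists passed in thalidomide.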

How the data were processed

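The authors deposited 1 table of TPM per gene for the 12 libraries. Per the submitters' processing notes it was made with HISAT2 2.0 and StringTie 1.3.0 on hg38; the sources used here give neither annotation nor strand nor depth. TPM keeps no read count, and no counting interval is given. Each column sums to the same total, so values are shares. Libraries had 13693 to 15038 features with at least 1 TPM. Columns were matched to libraries by their names in the labels. Names, positions and GC content came from GENCODE 29 and start sites from RefSeq.

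The deposited values were taken as log2(TPM + 1) for features with at least 1 TPM in at least 3 of 12 libraries. The pseudocount of 1 makes fold changes of low genes too small. Groups were compared in 1 limma 3.58.1 fit (R 4.3.3; mean-variance trend, two-sided) with Benjamini-Hochberg adjustment over 15352 features for each of 6 comparisons. The fit was tested on simulated data with independent noise for each feature and library. Such data lack the base composition differences seen between these libraries. Alternatives changed the pseudocount, filter, scaling, samples, GC correction (loess, span 0.3) and replicate block. The members, lists and rules were chosen with earlier results of these data known. Named members are the 4 highest and 2 lowest in control of each subunit, up to 6 largest rises and falls past the threshold in each comparison (otherwise the 2 smallest p), and the paralogs with their partners; up to 3 genes per other list follow the same idea. Other genes, such as the stalk and 5S members, were named after their values were seen. Some members and list genes that these rules name are not reported here.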

Additional observations from a re-analysis of the deposited data

How the results depend on the processing

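Without a filter, disulfiram had 4 rises and 0 falls, the combination 19 and 2 against control and 21 and 1 against thalidomide. Median-of-ratios scaling gave 2 rises in disulfiram, 7 rises and 8 falls in the combination against control, and 7 and 19 against thalidomide, with medians of 0.021 in disulfiram, 0.0048 in the combination, -0.038 against disulfiram, -0.089 against thalidomide and -0.11 in the interaction. GC correction gave 7 rises and 6 falls in disulfiram, 7 rises in the combination and 7 and 9 against thalidomide, with medians of 0.053, 0.051, -0.0097, -0.025 and -0.059 in the same order, and turned RPS20 of the combination against disulfiram to -0.011. Quantile normalization gave 4 falls in disulfiram, 8 against thalidomide and a median of 0.16 in the combination. A fit of only the compared groups gave 6 rises in disulfiram and 3 falls against thalidomide. Without library 2 of both disulfiram and the combination there were 23 rises and 5 falls in disulfiram and 8 falls against thalidomide. Leaving out 1 library at a time gave 3 to 14 rises and 0 to 4 falls in disulfiram, 15 to 40 and 2 to 4 in the combination, 15 to 36 and 1 to 6 against thalidomide, and 0 to 1 rises against disulfiram. The causes were not tested, except that fewer libraries or more features tested enter some settings. The replicate number as a block gave 8 rises in disulfiram and changed no other count by over 1.5 times. Of 18 same-numbered pairs of libraries 4 had a correlation of deviations over 0.1 (range -0.154 to 0.369). Between disulfiram and the combination, libraries numbered alike had 0.211, 0.369 and 0.03, and libraries numbered unlike had -0.299 to 0.125. Whether a number marks a shared batch was not tested. The share differences were 0.989 and 0.650 percentage points in disulfiram and 1.33 and 0.795 in the combination for the large and the small subunit alone, and 1.37 to 1.86 and 1.94 to 2.42 over all members with 1 library left out (0.223 to 0.604 in thalidomide). Of 35 results on single genes under 22 alternatives, 665 values kept their direction and side of the threshold, 103 kept only the direction and 1 reversed.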

Other observations

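The table lists 1132 pseudogenes of ribosomal protein genes. Of these 499 had TPM above 0 in some library and 58 passed the filter. Their summed share was small and lay between 0.754% and 0.889% of all TPM in the 12 libraries, at 0.775% ± 0.0185 (SD, n = 3) in control and 0.864% ± 0.0217 in the combination. Reads of a member assigned to its copies would lie in these values. RPL36A-HNRNPH2 and RPS10-NUDT3, readthrough genes that share exons with RPL36A and RPS10, had 6.52 to 24.3 TPM and 4.58 to 6.32 TPM, against means of 2271 and 2632 TPM for the members.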
